A study of Mus musculus with 6 samples.

Results

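Retinoic acid is made inside cells from vitamin A. Retinol travels in blood on *Rbp4* (retinol binding protein 4), enters cells through the membrane receptor *Stra6*, and is oxidized to retinaldehyde by dehydrogenases such as *Rdh10* and *Dhrs9*. The retinaldehyde dehydrogenases *Aldh1a1*, *Aldh1a2* and *Aldh1a3* then form retinoic acid irreversibly, which binds nuclear receptors such as *Rara* and *Rarb*. In the kidney this pathway is known for its part in branching of the ureteric bud and nephron formation, and for megalin (*Lrp2*), which recovers retinol and its carrier from the filtrate in the proximal tubule. The 9 genes named here were taken by symbol from the authors' deposited table, which lists 23276 gene symbols. They were chosen by their roles in this pathway with the measured differences between the groups known, *Dhrs9* in particular, so their choice is not independent of these samples. The 9 genes had 25 of the 54721 transcript rows of the table, 16 with a RefSeq mRNA identifier and 9 assembled from the reads.

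The samples were 6 whole kidneys of mice at postnatal day 22, as the labels give the age. The 3 *Pkd1* F/RC SKO kidneys had the labelled genotype KspCre with *Pkd1* F/RC, and the 3 *Pkd1* F/RC DKO kidneys carried in addition miR17∼92 F/F. All 6 therefore shared the Cre transgene, 1 floxed *Pkd1* allele and 1 hypomorphic RC allele, and no kidney with normal *Pkd1* is among these 6. Ksp/Cre acts in renal tubules, so the floxed alleles of vessels, stroma and immune cells are left intact while the RC allele is present in all cells. Total RNA was sequenced, and the values are levels in bulk tissue, in which fewer cells of a type and less RNA per cell cannot be told apart. Neither a level per kidney nor a separate level for SKO or DKO is given. Its columns for the difference between the groups are the authors' own results and were not used. The 9 genes are therefore described by their mean level, and SKO and DKO are not compared.

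The mean level itself was taken over more libraries than the labels describe. The table gives it as log2 CPM, reads counted for a transcript relative to the size of the library, with a prior count added. Transcripts without any read sat at 0.0263 CPM, 4617 rows in all. Above them lay 640 rows that took only 9 distinct levels, 1 for each library that could hold a single read. The next 357 rows took 45 distinct levels, the number of ways to place 2 reads in 9 libraries, whereas 6 libraries allow only 21. The size of the steps implied a prior count of 1.98, close to the 2 that was assumed for the read numbers given here. Each mean thus covers 9 libraries, 3 beyond the 6 labelled kidneys, and what those 3 were is not analysed here. The levels therefore cannot be taken as those of the 6 labelled *Pkd1* F/RC kidneys alone. The steps of 1 read differed by at most 1.11 times, but the size of a step is not a measure of depth. The 9 levels of 1 read held between 17 and 104 rows each. Whether the 9 libraries were of similar depth was not tested. The mean effective library size was about 75900000 counts. The spread between kidneys is not contained in such a mean, so no error can be given for any level and no order between neighbouring genes was tested.

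**Figure D1:**
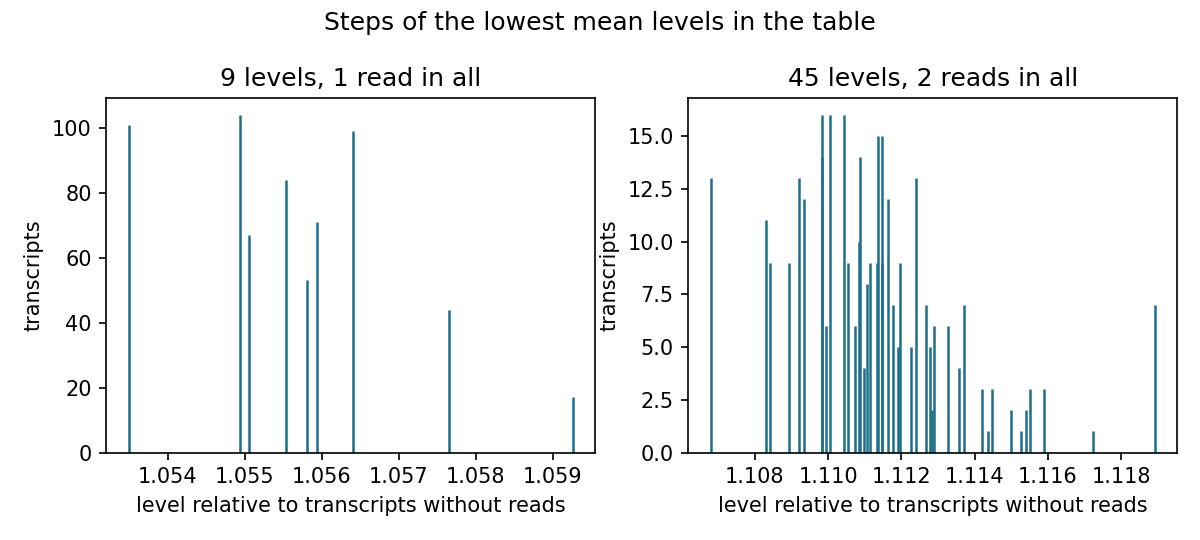
Number of transcripts (vertical axis) at each distinct lowest mean level, relative to transcripts without reads (horizontal axis). The 640 transcripts with 1 read in all stand at 9 levels and the 357 with 2 reads at 45 levels.

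The tissue was kidney by its markers. The proximal tubule transporter *Slc34a1* and the thick ascending limb gene *Umod* stood at 423 and 374 CPM per kb of transcript, and *Aqp2* of the collecting duct at 52.2. *Pecam1* of endothelium was at 16.1, *Col1a1* of stroma at 16.3 and *Ptprc* of leukocytes at 1.62 CPM per kb. The globin gene *Hba-a1* of blood was at 104 CPM per kb. The liver genes *Alb* and *Apoa1* were at 6.58 and 1.35, and the markers of retinal pigment epithelium *Rpe65* and *Rlbp1* were at 0.0263 CPM, the level of transcripts without reads, and 0.0336 CPM, about 0.555 reads per library.

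The mature sequences of the deleted miRNAs, and promoter windows searched for retinoic acid receptor motifs, are shown before the levels. The Ksp/Cre-deleted cluster encodes miRNAs of 4 seed types, a seed being bases 2 to 8 of the mature miRNA, in capitals below. The mature sequences are those of RefSeq on GRCm38.p6, all from chromosome 14.

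miR-17-5p: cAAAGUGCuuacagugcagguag
miR-20a-5p: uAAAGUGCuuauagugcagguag
miR-18a-5p: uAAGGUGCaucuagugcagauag
miR-19a-3p: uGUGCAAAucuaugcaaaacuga
miR-19b-3p: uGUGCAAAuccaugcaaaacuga
miR-92a-3p: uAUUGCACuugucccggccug

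The miR-17 and miR-20a seeds are the same, as are the miR-19a and miR-19b seeds. Their 7-base matches, GCACTTT for miR-17 and miR-20a, GCACCTT for miR-18a, TTTGCAC for miR-19 and GTGCAAT for miR-92a, were sought in the 3′-UTR of the transcript with the highest RefSeq level of each gene. None of the 9 genes held any of the 4 matches, while 26.3% of 18916 3′-UTRs of the table's genes held at least 1. The match to miR-17 and miR-20a was in 11.0% of them, that to miR-19 in 10%, to miR-18a in 7.21% and to miR-92a in 5.98%. The 3′-UTR of *Dhrs9*, at 3076 nucleotides, was longer than 89.8% of the others, and that of *Rdh10*, at 2317, longer than 82.8%. *Aldh1a3* had 1799, *Rara* 1305 and *Rarb* 1232 nucleotides, against a median of 783. The shortest were those of *Stra6* (674), *Aldh1a2* (649), *Aldh1a1* (496) and *Rbp4* (243). The absence of these letters describes this window only, since other site types and the coding sequence were not searched.

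Retinoic acid receptors bind, with RXR partners, to direct repeats of a short core motif. The motif AGGTCA and its variants AGTTCA and GGTTCA were sought on both strands in RefSeq promoter windows of 300 bases, 250 before and 50 after the start. Of the 9 genes, 7 had such windows, 15 in all, and *Rdh10* and *Aldh1a3* had none. *Rarb* held the only direct repeat among them, with 5 bases between GGTTCA and AGTTCA, 53 to 37 bases before the start that the window uses. The *Rarb* transcript used for the levels, NM_011243, starts further upstream, at 16575543, so the repeat lies downstream of that start. Only 20 of 32851 windows in the genome, 0.0609%, held any such repeat with 5 bases between, and 0.371% held one with 5, 2 or 1 bases between. The *Rarb* window lies at chr14:16575427-16575726 on the reverse strand of GRCm38.p6, with the repeat (16575513 to 16575529) in capitals. The *Dhrs9* window, chr2:69380212-69380511 on the forward strand, is set beside it with its single motif, AGGTCA read on the opposite strand, in capitals.

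Rarb: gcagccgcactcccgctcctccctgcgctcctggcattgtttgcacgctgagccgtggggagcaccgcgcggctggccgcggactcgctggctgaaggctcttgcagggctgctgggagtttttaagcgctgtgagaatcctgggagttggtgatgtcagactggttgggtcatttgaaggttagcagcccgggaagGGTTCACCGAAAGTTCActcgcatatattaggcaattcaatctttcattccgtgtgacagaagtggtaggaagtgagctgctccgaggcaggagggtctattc
Dhrs9: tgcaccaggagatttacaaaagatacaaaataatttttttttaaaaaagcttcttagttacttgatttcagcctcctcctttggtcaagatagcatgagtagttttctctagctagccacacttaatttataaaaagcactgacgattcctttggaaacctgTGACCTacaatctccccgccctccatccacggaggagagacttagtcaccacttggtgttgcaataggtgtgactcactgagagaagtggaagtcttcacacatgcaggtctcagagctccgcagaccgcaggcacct

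Single motifs are common, found in 35.0% of all windows and in 5 of the 15 windows here. Besides those of *Rarb* and *Dhrs9*, they lay in 1 window of *Stra6* and in 2 of *Rara*. None lay in the windows of *Aldh1a1*, *Aldh1a2* or *Rbp4*. A match of letters is not evidence of binding.

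All 9 genes were expressed above 1 CPM in the mean of the 9 libraries, as were 55.9% of all gene symbols. For each gene the transcript row with the highest level was taken first. On that scale the median of the 9 was 8.89 CPM, against 2.36 CPM over all gene symbols. Because longer transcripts collect more reads, the levels of named genes are set against each other, and against all gene symbols from here on, as CPM per kb, with the highest RefSeq mRNA row and its length in the GENCODE annotation of GRCm38, the assembly also named mm10. The median of the 9 genes was then 2.63 CPM per kb, against 1.4 for the 20174 gene symbols with such a value. The 9 genes spanned a 23.0-fold range per kb, from *Dhrs9* at the bottom to *Aldh1a3* at the top.

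**Figure D2:**
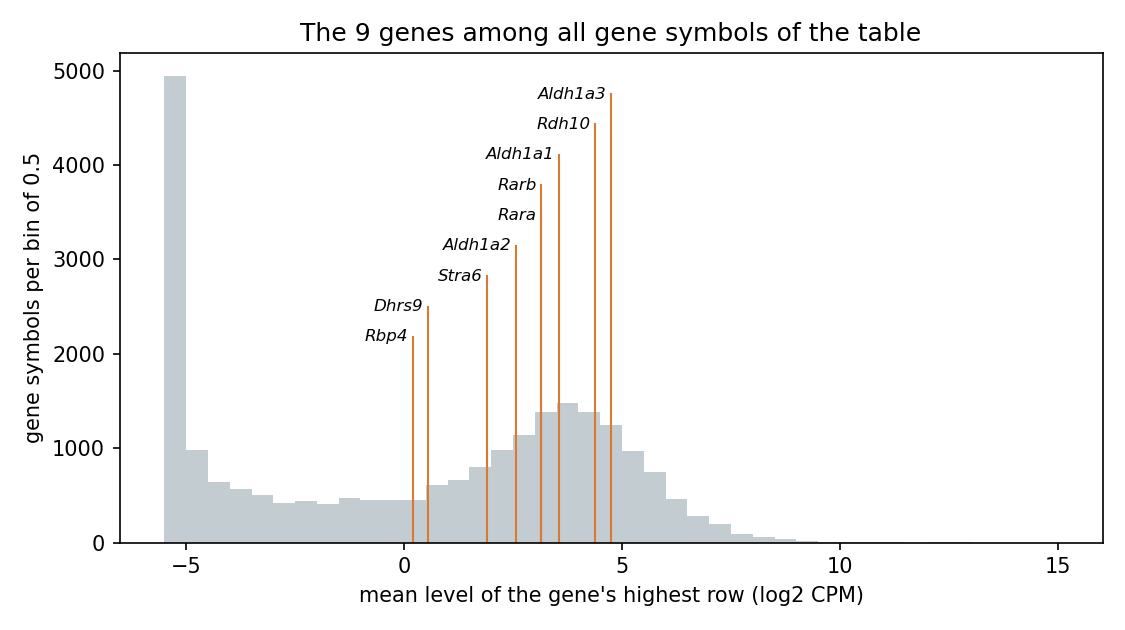
Number of gene symbols (vertical axis) by the mean log2 CPM of each gene's highest transcript row (horizontal axis), over 23276 symbols, with the 9 genes as vertical lines whose heights only separate the labels. *Rbp4* and *Dhrs9* lie lowest, at 0.20 and 0.54, and *Aldh1a3* highest, at 4.75; *Rara* and *Rarb* share a line at 3.15.

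The carrier *Rbp4* and the receptor *Stra6* stood 8 and 7 in the order of the 9 genes per kb, each by its highest RefSeq row. *Rbp4*, the carrier of retinol in blood, is made mainly by the liver. It lies on the reverse strand of chromosome 19 (38116629 to 38125248) and had 2 RefSeq rows of 6 exons each, NM_001159487 and NM_011255. Both stood at 1.15 CPM, about 85.4 and 85.3 reads per library. Per kb the first row had 0.991 CPM, above 46.1% of gene symbols. The second row is shorter, 937 against 1161 nucleotides, and had 1.23 CPM per kb. That is above the RefSeq rows of *Stra6*, at 1.04 to 1.17 CPM per kb, so the order of these genes depends on the row chosen. The rows differ at their 5′ ends, with 295 and 71 exon bases of their own, and share 866. Their levels were nearly the same, so the bases particular to each made almost no difference.

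*Stra6*, the receptor that takes retinol from *Rbp4* into cells, lies on the forward strand of chromosome 9 and had 10 rows, 4 of them RefSeq mRNAs of 19 exons. The 4 RefSeq rows stood between 3.19 and 3.2 CPM, about 240 to 241 reads per library. NM_009291 and NM_001162475, which start at 58129349 and 58129088, had the same log2 level to 6 decimals, 1.672514. They have 333 and 63 exon bases that no other RefSeq row of the gene has. NM_001162476 starts at 58134075, has 374 such bases and differed from them by about 1 read per library. All 4 contain the same 2660 bases, and their levels did not tell the start sites apart. The 6 assembled rows ranged from 2.38 CPM for CUFF.37619.10 to 3.76 CPM for CUFF.37619.5. Per kb, *Stra6* stood at 1.04 CPM, above 46.6% of gene symbols, beside *Rbp4* at 0.991 or, by its shorter row, 1.23.

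The retinol dehydrogenases were far apart. *Rdh10*, which catalyses the rate-limiting first oxidation in the embryo, lies on the forward strand of chromosome 1 (16105774 to 16133734). Its RefSeq row NM_133832, with 6 exons, stood at 17.8 CPM, about 1347 reads per library. An assembled row of the gene, CUFF.146.1, was higher, at 20.9 CPM and about 1588 reads per library. Per kb of the RefSeq transcript *Rdh10* had 4.95 CPM, above 73.4% of gene symbols.

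*Dhrs9*, a short-chain dehydrogenase that oxidizes retinol and also acts on steroids, was the lowest of the 9 genes per kb. It lies on the forward strand of chromosome 2 (69380445 to 69404533), has 5 exons and had a single row, NM_175512. That row stood at 1.46 CPM, a log2 level of 0.54, or about 109 reads per library. Its transcript is the longest of those used for the 9 genes, 4281 nucleotides, and spread over that length the level was 0.34 CPM per kb, below which lay 37.5% of gene symbols. *Rdh10* was 14.6 times higher per kb. No assembled row was listed for *Dhrs9*, and no other annotated gene overlaps its exons. How these reads were divided between kidneys cannot be read from the mean.

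Among the retinaldehyde dehydrogenases, *Aldh1a3* and *Aldh1a1* held the first 2 places of the order per kb. *Aldh1a3*, on the reverse strand of chromosome 7 (66390890 to 66427517; 13 exons), had 1 row, NM_053080, at 26.9 CPM or about 2042 reads per library. It stood at 7.82 CPM per kb, above 82.3% of gene symbols. *Aldh1a1*, on the forward strand of chromosome 19 (20601961 to 20643462; 13 exons), had 11.7 CPM, about 885 reads per library, and 5.69 CPM per kb. *Aldh1a2*, the main source of retinoic acid in the early embryo, lies on the forward strand of chromosome 9 (71215789 to 71296243; 14 exons). It had 5.95 CPM, about 450 reads per library, and 2.63 CPM per kb. *Aldh1a3* was thus 1.37 times *Aldh1a1* and 2.98 times *Aldh1a2* per kb in the mean of all libraries. Each of these genes had 1 row, and none has exons that overlap another annotated gene.

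The nuclear receptors stood close together in the middle of the order. *Rara* lies on the forward strand of chromosome 11 and had 6 rows between 8.32 and 8.89 CPM, about 630 to 673 reads per library. Its 4 RefSeq rows start at 98937698, 98937718, 98939711 and 98960412 and share 1736 exon bases, between 51.3% and 70.3% of each. NM_001176528, which starts last, has 722 bases of its own and was the lowest, at 8.32 CPM, while the other 3 stood between 8.80 and 8.88 CPM. As for *Stra6*, the levels of the rows were alike although their exons differ. Per kb *Rara* had 2.63 CPM by its highest RefSeq row, NM_001177302, with 3384 nucleotides. NM_009024, also at 8.88 CPM but with 2469 nucleotides, had 3.59 CPM per kb, so the value depends on the row chosen.

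*Rarb* is both a receptor and a classic target of retinoic acid through the repeat printed above. It lies on the reverse strand of chromosome 14 (16430839 to 16575543), has 8 exons and had 1 row, NM_011243. That row stood at 8.90 CPM, about 674 reads per library, and at 2.86 CPM per kb. Per kb this was 1.09 times NM_001177302 of *Rara*, but less than the 3.59 CPM of NM_009024. Of the 3108 exon bases of *Rarb*, 1793 (57.7%) also lie in the exons of *Top2b*, a topoisomerase gene on the opposite strand, which stood at 64.6 CPM. Even coverage of *Top2b* would put 11.2 CPM on those bases, more than *Rarb* had in all. Another such pair was used to see whether strand was kept when reads were counted. *Tsix* shares 1980 exon bases with *Xist* on the opposite strand. *Xist* stood at 170 CPM, which would put 18.8 CPM on them, and *Tsix* at 0.102 CPM. *Tsix* was thus far below what counting without strand would give under even coverage, and the library kit keeps strand. Whether *Top2b* contributed to *Rarb* was not tested directly.

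**Figure D3:**
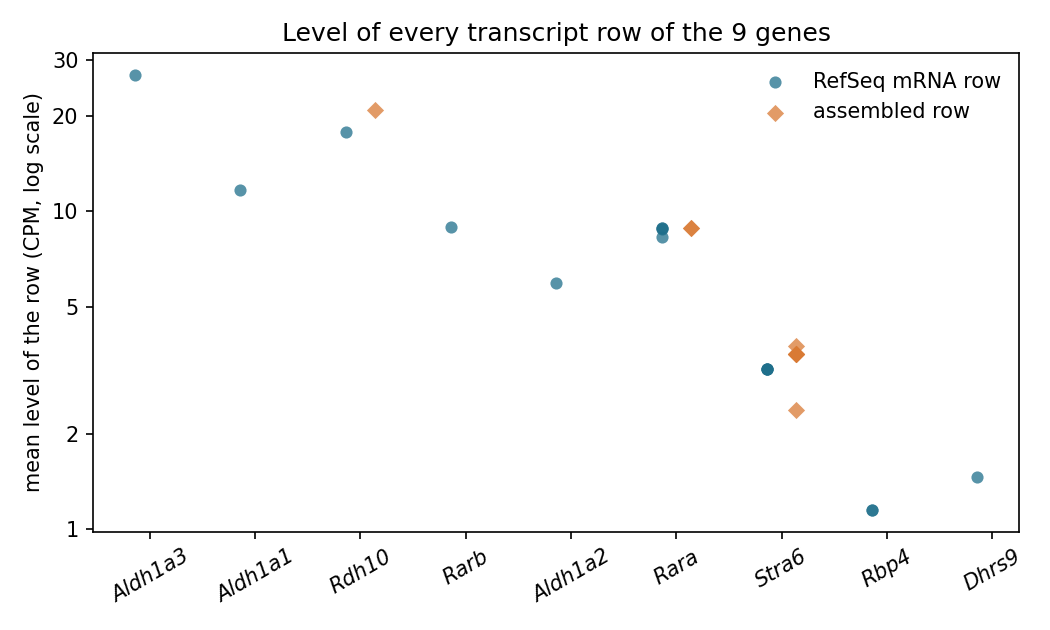
Mean CPM (vertical axis, log scale) of each of the 25 transcript rows by gene, ordered by level per kb, with RefSeq mRNA rows as circles and assembled rows as diamonds, and rows of equal level on top of each other. The rows of *Rara* lie between 8.32 and 8.89 CPM and those of *Stra6* between 2.38 and 3.76 CPM.

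The other genes of retinoid metabolism give the setting of these levels. The table held 46 other genes of a list made by role, 30 of them at 1 CPM or above, and their median was 1.59 CPM per kb against 2.63 for the 9 genes. The pathway list was not tested against other genes. For uptake and binding, 3 of 7 reached 1 CPM. *Lrp2*, the scavenger receptor megalin, stood at 36.7 CPM per kb. *Ttr*, the blood protein that holds *Rbp4*, stood at 15.3 CPM per kb. *Rbp2*, a carrier of the intestine, was at 0.0423 CPM. For storage and release, 4 of 5 reached 1 CPM. *Ces1d*, a carboxylesterase, stood at 21.9 CPM per kb, *Dgat1*, an acyltransferase, at 4.02, and *Lrat*, which esterifies retinol, at 0.254, lower than all 9 genes.

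Of 16 other genes that oxidize retinol or reduce retinaldehyde, 13 reached 1 CPM. Per kb, the highest were the alcohol dehydrogenase *Adh1*, at 60.4 CPM, the short-chain dehydrogenase *Dhrs4*, at 33.0, *Adh5*, at 31.6, and the dehydrogenase *Rdh16*, at 18.5. Each of these was above *Rdh10*, at 4.95, and *Dhrs9*, at 0.34 CPM per kb. *Sdr16c5* stood at the level of transcripts without reads, 0.0263 CPM. Of 3 other genes that oxidize retinaldehyde, *Aldh8a1*, which prefers the 9-cis form, was the highest, at 25.8 CPM per kb. *Aldh1a7* stood at 1.17 and *Aox1* at 0.219 CPM per kb, so that *Aldh1a1*, *Aldh1a2* and *Aldh1a3* lay between the first and the second.

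Of the 3 enzymes that clear retinoic acid, 1 reached 1 CPM. That was *Cyp26b1*, at 3.45 CPM, about 260 reads per library, and 0.83 CPM per kb. *Cyp26a1* had about 6.09 reads per library, at 0.107 CPM, and *Cyp26c1* about 0.764, at 0.0364 CPM. Per kb the 3 levels lie below those of *Rara* and *Rarb* and of the 3 retinaldehyde dehydrogenases. Among receptors, *Rxra*, a partner of all retinoic acid receptors, stood at 7.63 CPM per kb, *Rarg* at 4.91 and *Rxrb* at 4.89. Each of these was above *Rara*, at 2.63, and *Rarb*, at 2.86 CPM per kb.

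**Figure D4:**
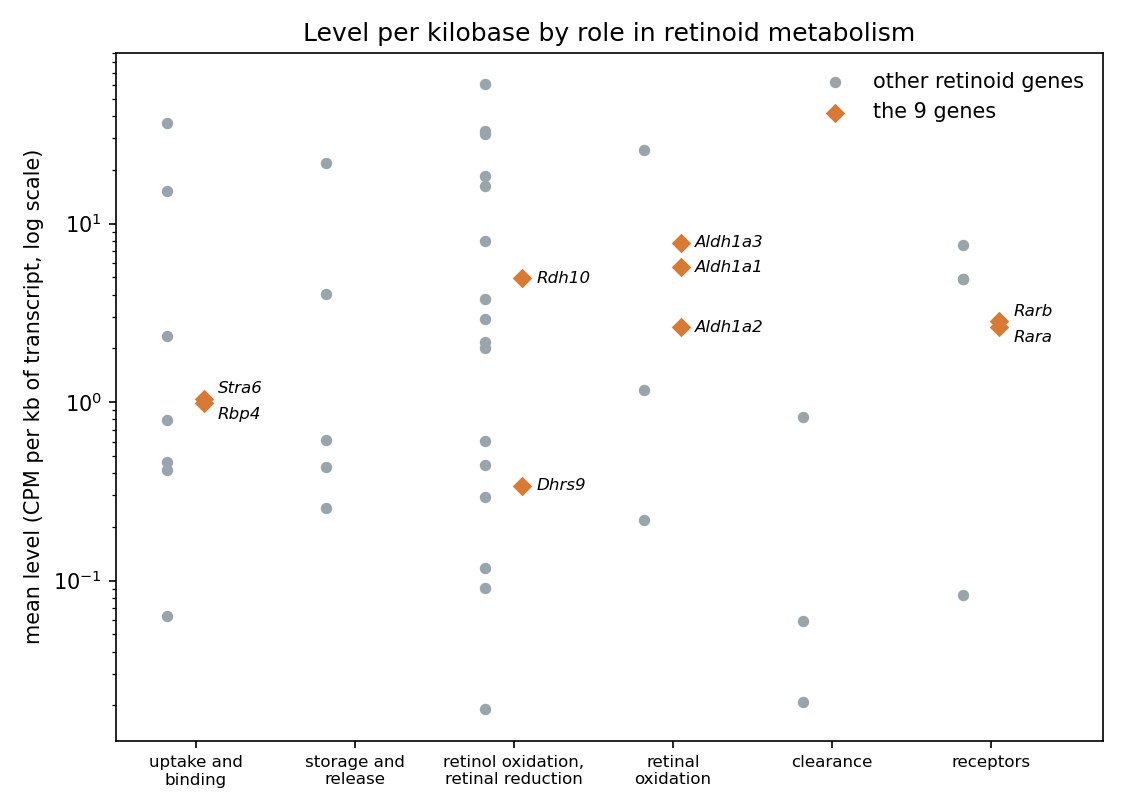
Mean CPM per kb of transcript (vertical axis, log scale) of the 9 genes (diamonds) and of other retinoid genes (circles), by role. *Dhrs9*, at 0.34, lies far under *Rdh10*, at 4.95, and the clearance genes lie at 0.83 and below.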

How the data were processed

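The labels describe RNA of 6 mouse kidneys, 3 *Pkd1* F/RC SKO and 3 DKO, while the mean levels used here cover 9 libraries. The authors read strand-specific libraries as single ends, trimmed them, mapped them to mm10 with TopHat and dropped alignments of low mapping quality. For the authors' processing, the submitters' notes name TopHat2 2.0.12, Cufflinks, Subread 1.4.6 with featureCounts and edgeR 3.2.4. The deposited log2 values used here are the mean log2 CPM of each transcript. The other deposited columns hold the authors' own fold change, likelihood ratio statistic, p-value and adjusted p-value for DKO against SKO, and were not used. The planned fit of counts per kidney could not be run, because the table has none, and no test was made. RefSeq identifiers were matched to GENCODE M21 transcripts for lengths and positions. Reads per library were approximated from the mean and a prior count of 2. Both the step count and the motif search were tested on simulated data. The search for seed matches was added after the data were seen. Members and lists were chosen with earlier results of these data known. Named beside the 9 genes are the 3 highest genes by CPM in each role and those under 0.1 CPM, except items that are not reported here. The marker genes, *Top2b*, *Tsix*, *Xist* and *Dhrs4* fall outside that rule, and *Dhrs4* was added after its value was seen. Of the list, *Rbpr2* was not found under that symbol, and *Bco1* was found under its older symbol *Bcmo1*. Protein comparisons were not made. Python 3.11.15, numpy 2.4.6 and pandas 2.3.3 were used.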

Additional observations from a re-analysis of the deposited data

How the results depend on the processing

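No paired analysis was possible because the table holds 1 mean per transcript, and for the same reason another normalization, another test and leaving out a replicate were not run. The mean over all rows of a gene moved *Rdh10* from 20.9 to 19.4 CPM and *Stra6* from 3.76 to 3.32 CPM, and the highest RefSeq row moved them to 17.8 and 3.2 CPM. *Rara* and *Rbp4*, which also have several rows, stayed within counting error under both. *Dhrs9*, *Aldh1a1*, *Aldh1a2*, *Aldh1a3* and *Rarb* had 1 row each, so neither alternative could change them. Subtracting the lowest CPM of the table kept all 9 levels within counting error. Without division by length, the order of the 9 genes placed *Rdh10* 2nd in place of 3rd, *Aldh1a1* 3rd in place of 2nd, *Rara* 5th in place of 6th, *Aldh1a2* 6th in place of 5th, *Dhrs9* 8 of 9 in place of 9 and *Rbp4* 9 of 9 in place of 8. So *Dhrs9* is the lowest per kb and *Rbp4* the lowest in CPM. With the lowest CPM subtracted before the division, an alternative chosen after seeing the data, *Rara* was rank 5 and *Aldh1a2* rank 6. Dividing by the longest RefSeq mRNA could not change the order, because the row used for each gene was already its longest. The shorter rows NM_009024 of *Rara* and NM_011255 of *Rbp4*, nearly equal in CPM, gave higher values per kb, as described above. By CPM not divided by length, the share of all gene symbols below was 44.9% for *Rbp4*, 46.3% for *Dhrs9*, 54.4% for *Stra6*, 59.8% for *Aldh1a2*, 65.8% for *Rara* and *Rarb*, 70.6% for *Aldh1a1*, 81.0% for *Rdh10* and 85.3% for *Aldh1a3*. Among the genes of at least 1 CPM alone, that share fell to 1.36% for *Rbp4*, 3.94% for *Dhrs9*, 18.4% for *Stra6*, 28.1% for *Aldh1a2*, 38.7% for *Rara*, 38.8% for *Rarb*, 47.4% for *Aldh1a1*, 66.0% for *Rdh10* and 73.6% for *Aldh1a3*. Among all transcript rows it was 41.8%, 43.4%, 51.6%, 57.2%, 63.3%, 63.3%, 68.3%, 79.4% and 83.6% in the same order of genes.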

Other observations

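Of 10 genes commonly listed as induced through retinoic acid receptors, 4 reached 1 CPM. *Tgm2*, a transglutaminase, stood at 21.2 CPM per kb, *Dhrs3*, which turns retinaldehyde back into retinol, at 16.3, and *Nrip1*, a nuclear receptor corepressor, at 2.98. *Cdx1* and *Hoxb1*, developmental regulators, were at 0.0278 and 0.0336 CPM, about 0.11 and 0.555 reads per library. *Dhrs3* and *Dhrs9* thus stood at 16.3 and 0.34 CPM per kb. *Ppard* and *Fabp5*, a nuclear receptor and a carrier that also bind retinoic acid, stood at 3.02 and 9.96 CPM per kb.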
